A study of Mus musculus with 16 samples.

Results

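Germinal center (GC) B cells move between a light zone (LZ), where they meet antigen and T follicular helper cells, and a dark zone (DZ), where they divide. The 10 genes described here encode receptors for chemokines and lipids that place B cells in these zones and in the follicle, or proteins that carry or damp the signals of such receptors. They are Cxcr4, Cxcr5, Ccr6, Ccr7, S1pr1, S1pr2, Gpr183, Gna13, Rgs1 and Rgs13, chosen by gene symbol from the 56691 genes of the count matrix, and all 10 symbols were found.

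The cells came from ovalbumin-primed, NP-OVA boosted mice that had received 2 kinds of B1-8hi B cell together, with a knock-in receptor for the hapten NP. One kind carried BTKC481S, a knock-in mutant of the kinase BTK that resists the covalent BTK inhibitor acalabrutinib, and the other carried BTKWT. Single LZ GC B cells of lymph nodes were sorted, after gating on Fas+ CD38- cells with low surface CXCR4 and high CD86, and sequenced by SMART-seq2, a full-length method without molecular identifiers. All hosts carried both kinds of donor cell: 5, coded A7, A8, A10, A11 and A12, were given acalabrutinib, and 3, coded V5, V7 and V9, were given vehicle. The names of the 637 cells in the matrix give the host, plate and well but not the genotype, so the genotypes are pooled within each host and BTKC481S against BTKWT was not analysed here. The host was the replicate in every comparison. Because surface CXCR4 was part of the gate, Cxcr4 values describe cells already chosen for low CXCR4 protein.

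CXCR4 binds CXCL12, made by stromal cells of the DZ, and CXCR5 binds CXCL13, made by follicular dendritic cells of the LZ and follicle. S1PR2, the receptor for sphingosine-1-phosphate (S1P) that signals through the G protein subunit encoded by Gna13, holds GC B cells inside the GC, while S1PR1 draws lymphocytes toward S1P in blood and lymph. GPR183 senses oxysterols and CCR7 senses CCL19 and CCL21, and both draw B cells to the outer follicle and the T cell border. CCR6 binds CCL20 and is carried by naive and memory B cells. RGS1 and RGS13 speed up GTP hydrolysis by G alpha subunits and so shorten chemokine receptor signals.

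Each host gave 45 to 130 cells, between 26778559 and 114987280 counts per host, and a median of 789357 counts per cell (range 132412 to 1825420). Markers of the labelled cell type were present: Cd79a in 99.5% of cells, the GC factor Bcl6 in 86.5% and the LZ marker Cd83 in 85.9%. Of the 8 LZ markers listed, however, 2 were in at least 50% of cells, against 5 of the 7 DZ markers, and 1 of the 6 B cell markers, Ms4a1, was at 0. Among markers of other cells, Cd3e and C1qa had 1 count each in all cells and Itgam had 0. Of the T cell markers 7 of 8 and of the macrophage markers 6 of 8 were in under 5% of cells, the exceptions being Lck (51.6%), Adgre1 (38.1%) and Cd68 (9.11%). A count in a cell means at least 1 read after removal of reads with identical positions, and intervals on shares of cells are exact (Clopper-Pearson) 95% intervals that cover counting error only, with cells of 1 host sharing an animal. For a share of 0, the limit given is instead 3 cells of the total.

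S1pr2, Gna13 and Cxcr5 were found in most LZ cells. Cxcr4 was found in fewer, with 48.3% of cells in A8, 46.5% in A11 and 46.2% in V9, its lowest hosts. S1pr2 had a count in 77.9% of cells (496 of 637, interval 74.4 to 81%), Gna13 in 64.4% (410 cells, 60.5 to 68.1%), Cxcr5 in 60.9% (388 cells, 57.0 to 64.7%) and Cxcr4 in 53.4% (340 cells, 49.4 to 57.3%). Rgs13, an RGS protein of GC B cells, was found in 21.2% (135 cells, 18.1 to 24.6%). The remaining genes were rare: Ccr6 had a count in 25 cells (3.92%), S1pr1 in 24 (3.77%), Rgs1 in 19 (2.98%) and Ccr7 in 6 (0.942%). Gpr183 had 0 counts in 637 cells, which allows a share of cells with a counted read of up to 0.471% and, as described further on, sets no limit on its RNA. The shares stayed close to these at equal depth. After every cell was thinned to 459128 counts, which left 573 cells, S1pr2 was in 77.0%, Gna13 in 64.2%, Cxcr5 in 60.4%, Cxcr4 in 52.4% and Rgs13 in 20.9%.

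**Figure D1:**
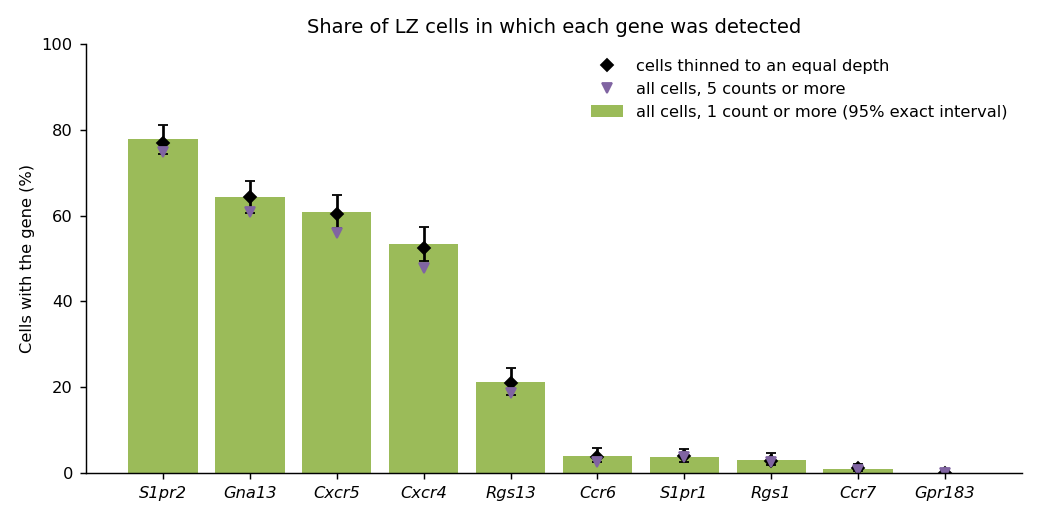
Share of the 637 LZ GC B cells with at least 1 count of each of the 10 genes, in percent. Bars are shares over all cells with exact 95% intervals, diamonds the 573 cells thinned to equal depth and triangles the cells with at least 5 counts. S1pr2 (77.9%) stands highest, Ccr7 at 0.942% and Gpr183 at 0.

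The genes differed in how their counts were spread. In cells with a count, the median level was 815 counts per 1000000 (CPM) for S1pr2, 511 CPM for Cxcr5, 444 CPM for Gna13 and 316 CPM for Rgs13, but 54.3 CPM for Cxcr4. In CPM not divided by gene length, the median of Cxcr4 in its positive cells was thus below those of S1pr2, Cxcr5, Gna13 and Rgs13. The upper quartile of Cxcr4 in these cells was 119 CPM. For the rare genes a few cells held most of the counts: the 10 cells with the most counts held 93.4% of all Ccr6 counts, 88.6% of Rgs1 and 79.8% of S1pr1, against 5.72% of S1pr2 counts. Ccr7, in 6 cells, had a median of 498 CPM in them, and Ccr6 in its 25 cells only 26.8 CPM. The quartiles of Ccr6 in those cells were 1.85 and 202 CPM, and 2.51% of all cells had at least 5 Ccr6 counts. Its median thus covers cells with very few counts and cells with many.

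Relative to their means, levels over whole hosts varied less for S1pr2, Cxcr5 and Gna13 than for Rgs13 and Cxcr4. Summed over the cells of a host, S1pr2 stood at 699.5 ± 120.5 CPM (SD, n = 8 hosts), Cxcr5 at 355 ± 41.4, Gna13 at 340.5 ± 57.2, Rgs13 at 75.8 ± 22.6 and Cxcr4 at 45.9 ± 16.8 CPM. The rare genes averaged 14.6 ± 10.9 CPM for S1pr1, 8.11 ± 7.22 for Rgs1, 4.85 ± 6.79 for Ccr7 and 4.24 ± 4.71 for Ccr6, with an SD close to or above the mean for the last 3. Ccr7 had a count in 4 of the 8 hosts, Ccr6 in 5, and S1pr1 and Rgs1 in 7 each.

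To compare the genes with each other, levels were divided by length. Exon length counted every base that is exon in any annotated transcript, which for Rgs1 was the whole gene of 6947 bases. Per kilobase of exon, Cxcr5 came first at 107 ± 12.4 CPM, followed by S1pr2 at 87.8 ± 15.1, Gna13 at 53.0 ± 8.91, Rgs13 at 45.8 ± 13.7, Cxcr4 at 25.4 ± 9.29, S1pr1 at 4.80 ± 3.58, Ccr7 at 2.45 ± 3.43, Ccr6 at 1.83 ± 2.03 and Rgs1 at 1.17 ± 1.04. Of these neighbors, only Cxcr4 and S1pr1 had host ranges that did not overlap, Cxcr4 being the higher in 8 of 8 hosts. S1pr2 also exceeded Gna13 within 8 of 8 hosts and Cxcr5 exceeded S1pr2 within 7, while Gna13 exceeded Rgs13 in 6 and the order of Ccr7, Ccr6 and Rgs1 differed from host to host. Because the counts include intron reads, the order was also taken per kilobase of whole gene. S1pr2 then came first at 48.5 CPM, Cxcr4 moved up to 11.2 and Gna13 stood at 8.83. Cxcr5, whose introns are long, stood at 7.09, the rare S1pr1 at 3.15 and Rgs13 at 1.96. The order among the 5 common genes therefore depends on the length used.

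The 0 of Gpr183 has a counterpart in the gene annotation. In GENCODE M21, an annotation of an earlier assembly used only for gene neighborhoods, Gpr183 lies wholly within Ubac2 on the opposite strand, and Ubac2 was at 302 ± 66.1 CPM. Of 736 protein-coding genes that lie wholly inside a gene on the opposite strand, 733 (99.6%) had 0 counts, against 1437 of 12199 (11.8%) that overlap no other gene. Gpr18, a receptor gene that also lies within Ubac2, was at 0, as was Ms4a1, which lies within a gene on the other strand. The 0 for Gpr183 can therefore not be read as absence of its RNA. Of the other 9 genes, Cxcr5 shared 3.30% of its exon bases with Bcl9l and Gna13 shared 6.63% with Gm11696, and the remaining 7 overlapped no other gene.

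The first comparison asked whether the levels differed between hosts given acalabrutinib and hosts given vehicle. Cxcr4 stood at 58.4, 33.2 and 25.9 CPM in vehicle hosts V5, V7 and V9, and at 67.1, 66.9, 38.9, 28.4 and 48.9 CPM in the acalabrutinib hosts, which are always listed from A7 to A12. Cxcr5 in the same order was at 399.7, 335 and 321 CPM with vehicle and at 338, 436, 341, 354 and 318 CPM with acalabrutinib. The groups overlapped for both chemokine receptors. S1pr2 was at 834, 740.1 and 525 CPM with vehicle and at 813, 818, 559, 671 and 636 CPM with acalabrutinib. Gna13 was at 378, 344 and 317 CPM with vehicle and at 461, 330.5, 285, 319 and 288 CPM with acalabrutinib. The acalabrutinib hosts thus reached above and below the vehicle hosts for Gna13, and lay within the vehicle range for S1pr2.

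The RGS genes came nearest to a separation. Rgs13 was at 80.6, 123 and 80.5 CPM in vehicle hosts and at 53.6, 85.4, 68.2, 61.2 and 54.4 CPM in acalabrutinib hosts, so 4 of 5 acalabrutinib hosts were below every vehicle host and A8 was inside their range. Its share of cells was 23.9, 23.6 and 26.2% with vehicle and 8.89, 19.1, 17.3, 22.8 and 18.5% with acalabrutinib, all 5 below the 3 vehicle hosts, with means of 17.3 ± 5.14 and 24.6 ± 1.37% (SD). A two-sided exact permutation test over hosts on this share gave p = 0.0357, which is the smallest p that 5 against 3 hosts allow, for a difference of -7.25 percentage points, and it was 1 of 5 shares tested, without adjustment and added after the values were seen. Rgs1 was at 8.12, 20.7 and 15.9 CPM with vehicle and at 0.784, 3.14, 0, 7.51 and 8.65 CPM with acalabrutinib. These Rgs1 values rest on 13 positive cells in the vehicle hosts and 6 in the acalabrutinib hosts. Over log2(CPM + 1), the same exact permutation test gave p = 0.107 for the level of Rgs13 and p = 0.0714 for that of Rgs1.

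No member passed the test across all genes. With edgeR's quasi-likelihood test on sums per host and Benjamini-Hochberg adjustment, 0% of 18016 tested genes were called (616 at an unadjusted p under 0.05), and 0 of the 9 tested genes described here. Gpr183, at 0, was not tested. The fitted log2 difference, acalabrutinib minus vehicle, was -0.57 for Rgs13 (SE 0.27, interval -1.16 to 0.02, edgeR adjusted p = 0.999988), 0.33 for Cxcr4 (SE 0.43, -0.63 to 1.29), 0.00 for Cxcr5 (-0.40 to 0.41), -0.02 for S1pr2 (-0.54 to 0.49) and -0.05 for Gna13 (-0.54 to 0.44). The intervals for Cxcr5, S1pr2 and Gna13 stay within 0.54 on the log2 scale in either direction, and those for Cxcr4 and Rgs13 are wider. In all treatment comparisons here, each sum pools BTKWT cells with BTKC481S cells, which resist the drug. The intervals therefore set no limit on a difference in BTKWT cells alone. DESeq2 called 2.4% of genes in this comparison and none of the 9. Beside these values, the summed T cell marker list, mostly Lck, ranged from 168 to 395 CPM in acalabrutinib hosts and 256 to 353 CPM in vehicle hosts, and the DZ list from 1467 to 1714 and from 1566 to 1794 CPM. Any part of these in the values of the 10 genes was not tested.

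**Figure D2:**
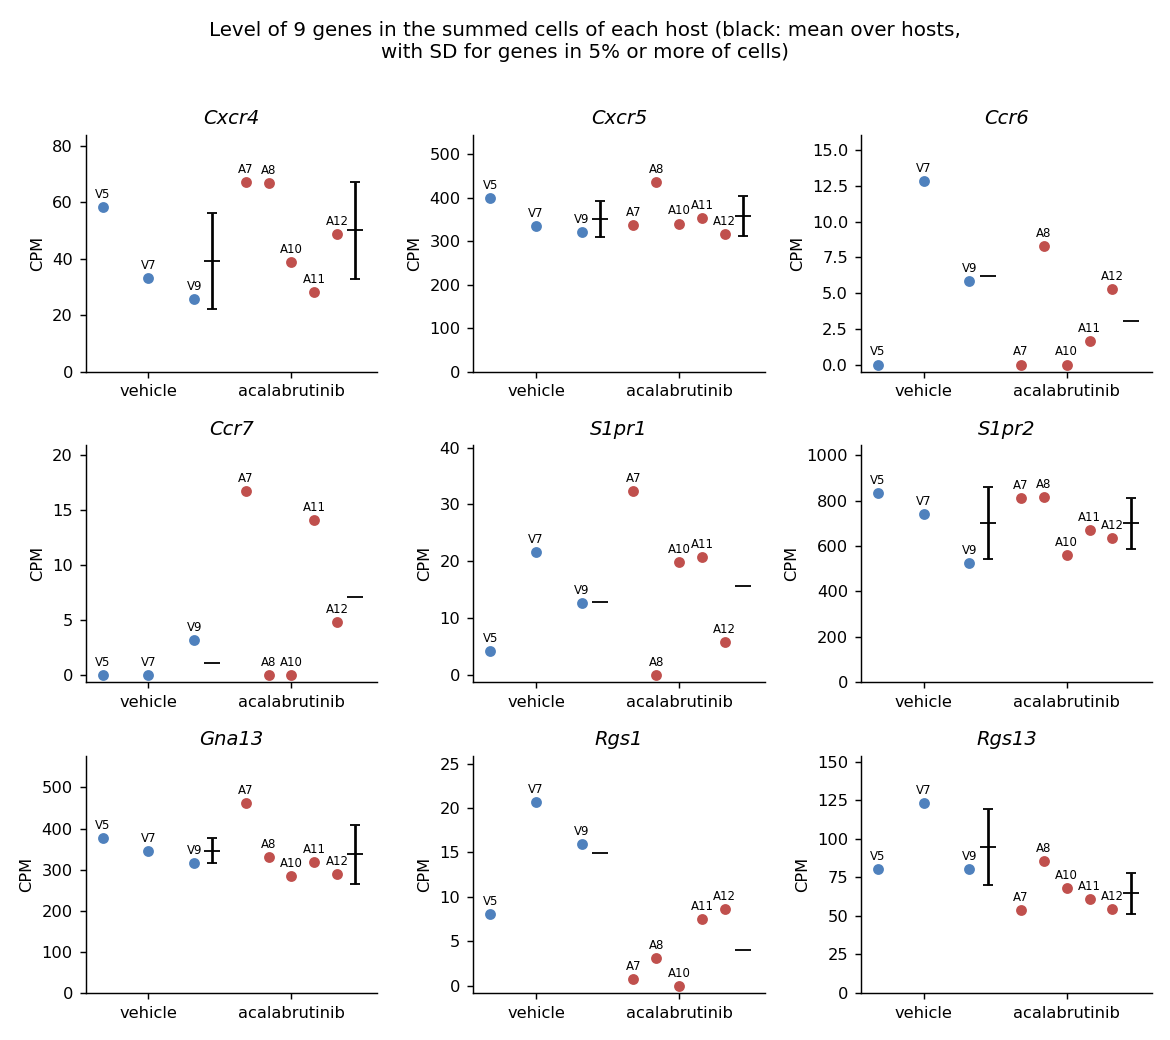
Level of each detected gene in each of the 8 hosts, in CPM summed over the cells of the host, for vehicle (3 hosts) and acalabrutinib (5 hosts), with the mean and SD over hosts for genes in at least 5% of cells. The groups overlap for every gene; Rgs13 has 4 of 5 acalabrutinib hosts below all vehicle hosts.

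The clearest differences were between cell cycle states. By expression of 43 S and 54 G2/M phase genes, 263 cells were scored G1, 217 S and 157 G2/M, with a median of 689733, 861810 and 885193 counts per cell, and every host had cells in each state. The median number of genes with a count was 3500, 4228 and 4423 per cell, and its part in shares of cells was not tested. None of the 10 genes was used for the score. Cxcr5, the receptor for the LZ chemokine, was highest in G1 cells and lowest in G2/M cells: 498 ± 81.5 CPM in G1, 331 ± 66.1 in S and 187 ± 67.4 in G2/M (SD, n = 8 hosts). In the acalabrutinib hosts, Cxcr5 was at 478, 528, 401, 611 and 455 CPM in G1 cells and at 147, 291, 134, 241 and 149 CPM in G2/M cells. In vehicle hosts it was at 604, 512 and 399 CPM in G1 cells and 158, 114 and 264 CPM in G2/M cells. Every host had less Cxcr5 in G2/M, and the highest G2/M host (291) was below the lowest G1 host (399).

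S1pr2, the GC confinement receptor, took the same order at a smaller size, with 814 ± 159 CPM in G1, 701 ± 112 in S and 554 ± 149 in G2/M. In acalabrutinib hosts S1pr2 was at 897, 805, 667, 787 and 769 CPM in G1 cells and at 726, 809, 434, 516 and 401 CPM in G2/M cells. In vehicle hosts it was at 1097, 910.4 and 577 CPM in G1 and 624, 466 and 457 CPM in G2/M. It was lower in G2/M in 7 of 8 hosts, with A8 at much the same level in both, and the ranges of the 2 states overlapped. The share of cells with S1pr2 did not follow its level: 74.5% in G1, 82.0% in S and 77.7% in G2/M.

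In G2/M against G1, with the host as a block, Cxcr5 fell by 1.45 on the log2 scale (SE 0.20, interval -1.88 to -1.02, edgeR adjusted p = 0.000451) and S1pr2 fell by 0.57 (SE 0.11, interval -0.80 to -0.34, edgeR adjusted p = 0.00708). These were 2 of the 9 tested genes, against 1.7% of 17899 tested genes called in either direction and 0.531% called lower. Among genes found in at least 25% of cells the median difference was -0.07, with the 5th and 95th percentiles at -1.29 and 1.20, so Cxcr5 lay below that range and S1pr2 within it. Both calls held without any single host (edgeR adjusted p up to 0.00333 for Cxcr5 and 0.0323 for S1pr2) and in Myc-negative cells alone (-1.43, adjusted p = 0.0145, and -0.61, adjusted p = 0.0142). With sums per plate in place of host, an alternative chosen after seeing the data, both directions held and neither call did (edgeR adjusted p = 0.168 and 0.0510). Without the host block Cxcr5 kept its call and S1pr2 did not (edgeR adjusted p = 3.83e-05 and 0.0771), and Ccr6, with 0 counts in G2/M cells, was called (0.0421).

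Cxcr4 went the other way without passing this test. Its level was 35.2 ± 18.6 CPM in G1, 43.4 ± 16.9 in S and 65.7 ± 31.1 in G2/M. In the acalabrutinib hosts it was at 35.7, 61.7, 44.4, 23.7 and 45.5 CPM in G1 cells and at 121, 95.9, 48.9, 33.9 and 80.9 CPM in G2/M cells. In vehicle hosts it was at 49.2, 14.5 and 7.28 CPM in G1 and 64.2, 45.1 and 35.6 CPM in G2/M. Every host was thus higher in G2/M, with ranges that overlapped between hosts, and the log2 difference was 0.95 (SE 0.39, interval 0.14 to 1.76, edgeR adjusted p = 0.347; DESeq2 adjusted p = 0.0094). DESeq2 called 13% of 21572 genes in G2/M against G1. The share of cells with Cxcr4 was 39.2% in G1 (interval 33.2 to 45.3%), 54.8% in S (48.0 to 61.6%) and 75.2% in G2/M (67.6 to 81.7%), and 38.7, 53.0 and 72.6% in thinned cells with the state scored again. Within hosts this share was higher in G2/M than in G1 by 38.5 ± 12.5 percentage points (SD, n = 8), in 8 of 8 hosts. Beside it, the summed DZ marker list, which includes Cxcr4 and the mitotic cyclins Ccnb1 and Ccnb2, was at 1039 CPM in G1, 1320 in S and 2797 CPM in G2/M cells, and the LZ list at 3062, 2050 and 1811 CPM. Of the DZ list, Ccnb2 and Mki67 were also among the G2/M genes of the score, so the rise of that list is partly set by the scoring. Whether zone history has a part in the cell cycle differences was not tested.

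Gna13 and Rgs13 showed no called difference. Gna13 was at 340.2 ± 66.4 CPM in G1, 282 ± 59.5 in S and 393 ± 98.7 in G2/M, with a log2 difference of 0.20 in G2/M against G1 (SE 0.16, interval -0.13 to 0.53, edgeR adjusted p = 0.71). Its share of cells was 57.8, 64.5 and 75.2%, beside medians of 3500, 4228 and 4423 genes with a count per cell. Rgs13 was at 71.1 ± 25.5, 90.0 ± 65.6 and 75.3 ± 43.4 CPM in G1, S and G2/M, and in A7 it ranged from 90.8 CPM in G1 to 0 in G2/M. The rare receptors were uneven over the states: Ccr6 was found in 16 of 263 G1 cells (6.08%), 9 of 217 S cells (4.15%) and 0 of 157 G2/M cells (which allows a share of up to 1.91% by the limit of 3 cells), and Ccr7 in 3, 3 and 0 cells. S1pr1 was in 13, 3 and 8 cells and Rgs1 in 6, 8 and 5.

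In S against G1 cells, 0 of the 9 tested genes passed, against 1.59% of 17899 genes. Cxcr5 differed by -0.60 on the log2 scale and was lower in S in 7 of 8 hosts (SE 0.20, interval -1.02 to -0.18, edgeR adjusted p = 0.206; DESeq2 adjusted p = 0.0478). DESeq2 called 11.5% of 22198 genes in this comparison. A10 was the exception, at 401 CPM in G1 and 449 CPM in S. The log2 differences of the other common genes were -0.23 for S1pr2 (edgeR adjusted p = 0.472), 0.42 for Cxcr4 (0.805), -0.27 for Gna13 (0.603) and 0.12 for Rgs13 (0.988). At an unadjusted edgeR p under 0.05, the genes were Cxcr5, S1pr2 and S1pr1, beside 1864 of all 17899 genes tested. S1pr1 was found in only 13 G1 and 3 S cells.

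**Figure D3:**
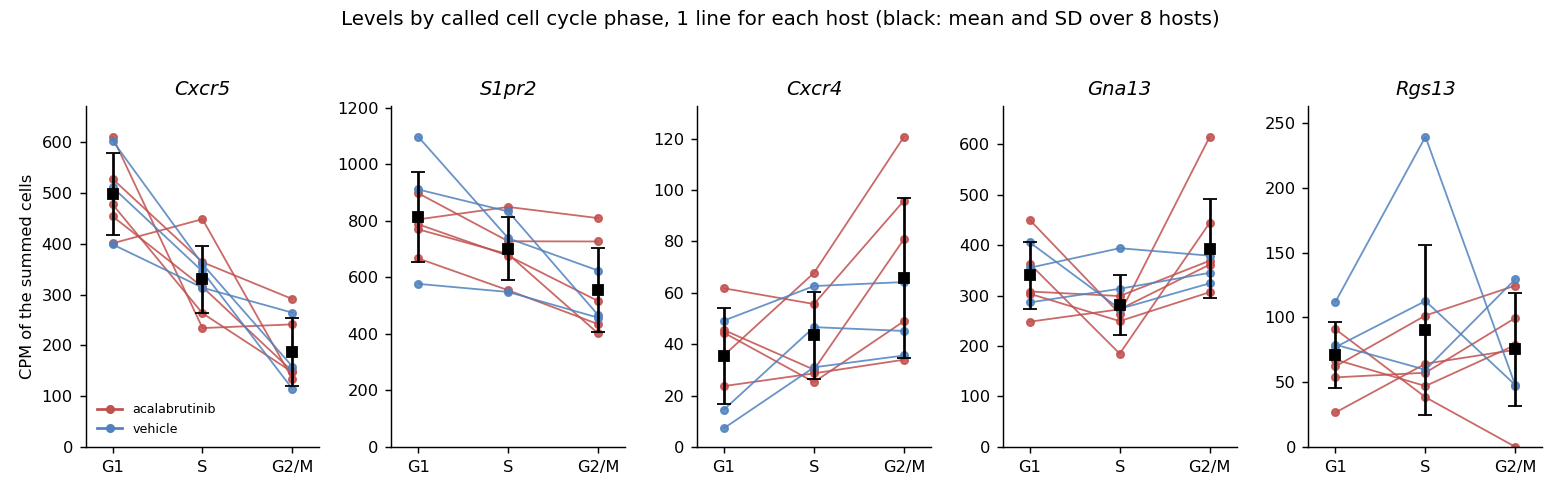
Level in CPM of Cxcr4, Cxcr5, S1pr2, Gna13 and Rgs13 in G1, S and G2/M cells of each host, with 1 line per host and, in black, the mean and SD over 8 hosts. Cxcr5 lies below its G1 level in G2/M in every host (mean 498 to 187 CPM) and Cxcr4 lies above it in every host (35.2 to 65.7 CPM).

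Myc is a transcription factor that T cell help induces in GC B cells, and 177 cells (27.8%) had a Myc count while 460 did not. Myc-positive cells made up 10.9 to 43.9% of a host's cells, or 5 to 50 cells, and their median depth was 890495 counts against 751578. S1pr2 was at 412, 629, 306, 659 and 551 CPM in the Myc-positive cells of the acalabrutinib hosts, and at 873, 854, 692, 681 and 681 CPM in their Myc-negative cells. In V5, V7 and V9 it was at 543, 514 and 411 CPM in Myc-positive and 923, 771 and 595 CPM in Myc-negative cells. S1pr2 was thus lower in Myc-positive cells of every host, with means of 503 ± 119.5 and 759 ± 115 CPM, and it was found in 70.1% of Myc-positive cells (interval 62.7 to 76.7%) and 80.9% of Myc-negative cells (77.0 to 84.4%).

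The difference for S1pr2 did not pass edgeR's test across all genes and passed DESeq2's. Its log2 difference was -0.68 (SE 0.14, interval -1.0 to -0.36, edgeR unadjusted p = 0.000715, edgeR adjusted p = 0.268; DESeq2 adjusted p = 0.0224). Of 21031 genes tested with the host as a block, 0% were called by edgeR (2010 at an unadjusted p under 0.05) and 9.22% by DESeq2, and of the 9 genes here edgeR called 0 and DESeq2 called 3, S1pr2, S1pr1 and Rgs1, the last 2 found in 4 and 7 Myc-positive cells. Genes found in at least 25% of cells had a median log2 difference of -0.22, with the 5th and 95th percentiles at -1.68 and 0.54, and S1pr2 lies inside that range. In G1 cells alone, over the 5 hosts with at least 5 Myc-positive G1 cells, the S1pr2 difference was -0.86. This was the largest among the alternatives other than leaving out each host, which ranged from -0.86 to -0.45. Some of these alternatives used fewer than 8 hosts. Pooled over hosts, the share of cells with S1pr2, with and without Myc, was 54.5 and 79.8% in G1, 80.0 and 83.1% in S and 72.3 and 80.0% in G2/M. Whether this gap differs between states was not tested.

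Cxcr4 was at 55, 24.5, 20.6, 10 and 48.5 CPM in the Myc-positive cells of the acalabrutinib hosts and at 68.9, 75.2, 48.4, 43.0 and 49.1 CPM in their Myc-negative cells. In vehicle hosts it was at 60.1, 26.9 and 18.0 CPM in Myc-positive and 57.9, 34.0 and 30.8 CPM in Myc-negative cells. It was lower in Myc-positive cells of every host but V5, and the log2 difference was -0.85 (SE 0.49, interval -1.93 to 0.23, edgeR adjusted p = 0.584). Within hosts, over all states, the share of cells with Cxcr4 differed by -8.12 ± 17.4 percentage points (SD, n = 8). It was higher in Myc-positive cells in 3 of 8 hosts. In G1 cells pooled over hosts, Cxcr4 was found in 14 of 55 Myc-positive cells (25.5%, interval 14.7 to 39.0%) and 89 of 208 Myc-negative cells (42.8%, 36.0 to 49.8%). The pooled shares were 44.0% and 60.6% in S and 72.3% and 76.4% in G2/M, and whether the gap differs between states was not tested. Pooling mixes hosts: A11 and V9 had the highest shares of Myc-positive cells (43.9 and 36.2%) and the lowest Cxcr4 levels (28.4 and 25.9 CPM). Any part of this in the pooled gaps was not tested. Myc-positive cells had a median of 4329 genes with a count, against 3800 in Myc-negative cells, and the part of this in shares of cells was not tested. Beside it, Cxcr5 was found in 66.1% of cells with Myc and 58.9% without, higher in 8 of 8 hosts by 7.45 ± 5.14 percentage points (SD). The summed level of Cxcr5 gave a log2 difference of 0.14 (SE 0.18, interval -0.25 to 0.54, edgeR adjusted p = 0.83). Gna13 (-0.22, adjusted p = 0.781) and Rgs13 (-0.91, adjusted p = 0.777) were not called by edgeR. The level of Rgs13 was higher in Myc-positive cells in 4 hosts and lower in 4, and its share of cells was 26.0% with Myc and 19.3% without. Without each host, its log2 difference ranged from -1.19 to -0.43. Beside these values, the LZ marker list stood at 2973 CPM in Myc-positive and 2063 CPM in Myc-negative cells, and the DZ list, with Cxcr4 in it, at 1398 and 1727 CPM. Its part in the receptor values was not tested.

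**Figure D4:**
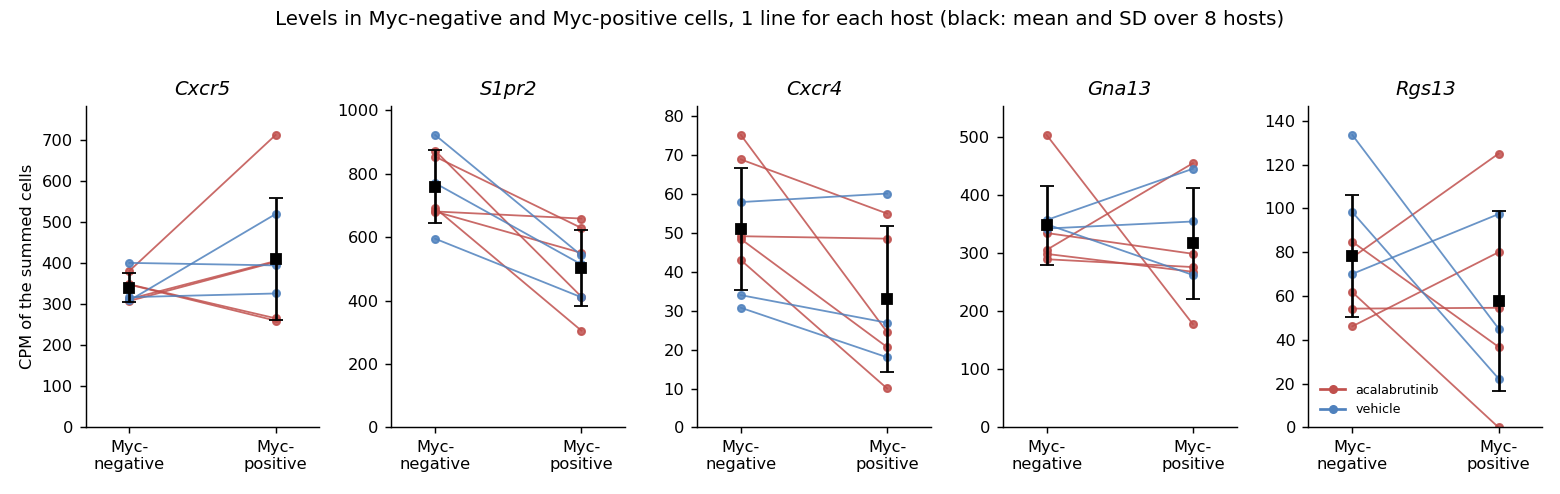
Level in CPM of Cxcr4, Cxcr5, S1pr2, Gna13 and Rgs13 in Myc-negative and Myc-positive cells of each host, with 1 line per host and, in black, the mean and SD over 8 hosts. S1pr2 is lower in the Myc-positive cells of every host, with means of 759 and 503 CPM.

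Whether the Myc difference itself depended on treatment was tested as an interaction. In simulated counts, edgeR found 0 of 200 genes changed 4-fold in this test, so a lack of calls alone sets no limit on such differences. By edgeR, 0% of 21031 genes were called (417 at an unadjusted p under 0.05), and 0 of the 9 genes here. For S1pr2, the Myc difference in acalabrutinib hosts minus that in vehicle hosts was 0.02 on the log2 scale, with an interval of -0.68 to 0.72. DESeq2 called 1.87% of genes, among them S1pr1 and Ccr7, found in 4 and 2 Myc-positive cells.

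Next, co-detection was examined in the 573 cells thinned to equal depth, against the share expected if genes were spread over the cells of a host without regard to each other. S1pr2 and Gna13, receptor and G protein, were both found in 50.1% of cells (expected 49.4%, above expectation in 4 of 8 hosts). Cxcr5 and S1pr2 shared 46.2% of cells (expected 46.5%, 4 of 8 hosts), and the opposed zone receptors Cxcr4 and Cxcr5 shared 30.9% (expected 31.6%, 3 of 8 hosts). Cxcr4 and S1pr2 shared 41.9% (expected 40.7%, 7 of 8 hosts) and Cxcr4 and Gna13 shared 35.4% (expected 33.7%, 6 of 8 hosts). The common genes were therefore found together about as often as their shares alone give. Pearson correlations of log2(CPM + 1) among them, over 573 cells that share hosts and plates, ranged from -0.064 (Cxcr4 and Cxcr5) to 0.052 (Cxcr4 and S1pr2).

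All of S1pr2, Gna13, Cxcr5 and Cxcr4 were found in 99 of the 573 cells (17.3%), 3 of them in 203 and none in 9 (1.57%). The share with all 4 was 13.7% in G1, 16.8% in S and 23.6% in G2/M cells, and 14.6% in Myc-positive against 18.4% in Myc-negative cells. Before thinning, the median number of genes with a count was 3500 per cell in G1, 4228 in S and 4423 in G2/M. Its part in these shares was not tested. Over the 10 genes, the most common number found in a cell was 3 (193 cells) and the highest was 6, in 2 cells.

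**Figure D5:**
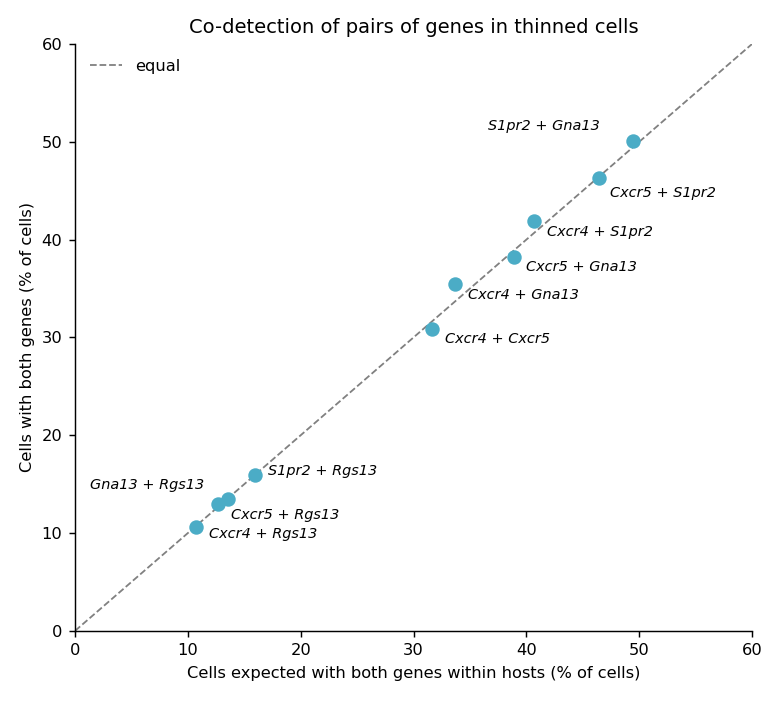
Share of the 573 thinned cells in which both genes of a pair had a count, observed against expected within hosts, in percent, for pairs of the common genes. Points lie near the line of equality, from S1pr2 with Gna13 at 50.1% observed and 49.4% expected downward.

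The genes whose pattern over cells was most like each common member were taken as the 3 highest Pearson correlations among 5120 genes found in at least 25% of cells. For Cxcr4 they were the mitotic genes Ccnb2 (r = 0.287), Cdc20 (0.275) and Hmmr (0.260), where the 99th percentile over all genes was 0.182. For S1pr2 they were Jchain (0.283), Mybl1 (0.268), a transcription factor of GC B cells, and 2610035D17Rik (0.262; 99th percentile 0.146). Cxcr5 and Gna13 had weaker neighbors. Slamf1 (0.176), Uvrag (0.162) and Rab6a (0.159) were nearest to Cxcr5, and Zfp943 (0.179), Galk1 (0.166) and Gcn1 (0.165) to Gna13. These correlations are over cells that share hosts, plates and depth, and are given as a description.

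The cells with one of the rare genes were few: 514 of the 573 thinned cells (89.7%) had none of S1pr1, Ccr6, Ccr7 and Rgs1, 54 had 1, 4 had 2 and 1 had 3. Over all 637 cells, S1pr2 was found in 14 of the 24 cells with S1pr1 (58.3%) and in 78.6% of the rest. Cells with Ccr6 had S1pr2 in 56% against 78.8% of cells without, and Cxcr4 in 32.0% against 54.2%. By contrast, 84.0% of the Ccr6 cells had Cd86 (62.7% of the rest), 80.0% had Fcer2a, which encodes CD23 (62.7%), and 64.0% were in G1 (40.4%). Of the 6 cells with Ccr7, 2 had S1pr2 and 3 had Cxcr5. Cells with Rgs1 had S1pr2 in 89.5% (77.5% of the rest) and Gna13 in 89.5% (63.6%). With 6 to 25 positive cells per gene these shares are descriptions of those cells.

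Of 71 other genes of the same pathways, 12 had 0 counts in all cells and 26 were found in at least 25% of cells. As with Gpr183, a 0 cannot be read as absence of RNA for a gene that lies within another, as Gpr18 does. The overlaps of the other genes of this list are not given here. Of 13 ligands and ligand enzymes 6 were at 0, among them the chemokine genes Cxcl13, Ccl19, Ccl20 and Ccl21a, and 0 of 19 other receptors reached 25% of cells. In S against G1 cells, 4 of 51 tested genes of this list fell and 0 rose, where 1.59% of all tested genes were called. They were Foxo1, a transcription factor of the DZ program (-0.70, edgeR adjusted p = 0.00319), Bach2, a repressor of plasma cell fate (-0.56, 0.0238), Dock2, an exchange factor for Rac (-0.55, 0.0399), and the small GTPase Rac2 (-0.26, 0.0245). In G2/M against G1 cells, edgeR called 0 of 51, where 1.7% of all tested genes were called, and it called 0 of 51 between treatments and 0 of 54 by Myc, where 0% of all genes were called.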

How the data were processed

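Single LZ GC B cells of 8 hosts (5 acalabrutinib, 3 vehicle) were sequenced by SMART-seq2. Per the file headers and the labels, the deposited values are raw counts per gene and cell, made by the authors with STARsolo 2.7.10a on GRCm39 over whole genes, introns included, with reads at identical positions counted once. The matrix holds 637 of 685 named cells, and no cell was filtered here. Cells were grouped by host, and each host covers 2 of the 16 samples, which differ in genotype, so genotype was not analysed here. Depth was 26778559 to 114987280 counts per host.

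Counts were summed per host, or per host and cell state, and tested over all genes with edgeR 4.0.16 (TMM, filterByExpr, quasi-likelihood, Benjamini-Hochberg, threshold 0.05), with the host as a block for cell states, since both sums come from the same animal, and at least 5 cells per sum. Cell cycle states came from Seurat 5.3.0, and Myc-positive meant at least 1 Myc count. The genes that define a state were left out of its test. CPM are counts per 1000000 counts of the cells summed. Exact permutation tests over hosts used SciPy 1.17.1 with a pseudocount of 1 CPM for levels. Alternatives were DESeq2 1.42.0, RLE size factors, no filter, thinned cells, subsets, plates, no block and leaving out each host. A further alternative was limma 3.58.1 on log2(CPM + 1), where CPM was the mean over the cells of a host or of a host and state. The plate alternative and the tests on shares of cells were added after seeing the data. The pipeline was tested on simulated counts: of 200 genes changed 4-fold, edgeR found 56 between treatments, 18 by Myc, 22 in S, 27 in G2/M and 0 in the interaction. The 200 genes were drawn at random from all genes past the filter, rare ones included, so these numbers do not describe the common genes alone. Nothing in the labels says which of the 2 experiments a host came from. The 10 genes and all lists were chosen with earlier results of these data known, and every member is named. Some genes of the lists are not reported here.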

Additional observations from a re-analysis of the deposited data

Results flagged for a closer look

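One value stood apart among the acalabrutinib hosts. Gna13 was at 461 CPM in acalabrutinib host A7, the host with the fewest cells (45), while the other 4 acalabrutinib hosts ranged from 285 to 330.5 CPM. The gap to its nearest neighbor was 0.743 of the range of the group, above the critical value for 5 samples. In all, 18 groups were examined in this way, and chance alone singles out about 1 group in 20. No difference between treatments in the effect of cell cycle or Myc state was singled out among the 49 looked at. For host values, the rule asked for the same sign in all acalabrutinib hosts and the opposite sign in all vehicle hosts. It could not single out Gpr183, Ccr6, Ccr7, S1pr1 or Rgs1, each with 0 counts in some acalabrutinib host. The others were the interaction tests, which found 0 of 200 genes changed 4-fold in simulated counts.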

How the results depend on the processing

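The number of genes called by edgeR was 0 between treatments, 0 by Myc, 284 in S, 305 in G2/M and 0 in the interaction. DESeq2 called 446, 1593, 2550, 2813 and 347, and of the 10 genes it called 3 by Myc (S1pr2, S1pr1 and Rgs1), 2 in S (Cxcr5 and S1pr1), 4 in G2/M (Cxcr4, Cxcr5, S1pr2 and Ccr7) and 2 in the interaction (S1pr1 and Ccr7), where it called 9.22, 11.5, 13 and 1.87% of all genes tested. For Myc, thinned cells gave 1 gene, a Myc limit of 10 CPM gave 1, no replicate block gave 21 and plates in place of hosts gave 59. In S, limma gave 458 and Myc-negative cells alone 160. In G2/M, limma gave 522, and plates called 0 of the 10 genes. Leaving out each host gave 190 to 266 genes in S and 238 to 289 in G2/M, and 0 in the other comparisons. The cause of these shifts was not tested. Without the replicate block, S1pr2 in G2/M lost its call (edgeR adjusted p = 0.0771) and Ccr6 gained one (0.0421). No paired analysis of the genotypes was possible because the cells carry no genotype.

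Among the 5 genes in at least 5% of cells, the signs that turned belong to differences that edgeR did not call. The fitted differences of the 4 rarer genes rest on few cells and are not given, and some turned too, such as S1pr1 by Myc, which was negative with the block and positive without it, and Rgs1, which was positive in G1 cells alone. Between treatments, Cxcr5 (0.00) was at -0.0083 with no filter, -0.018 by limma, -0.062 in G1 cells and -0.13 to 0.15 without each host. S1pr2 (-0.02) was at 0.011 in the host values of log2(CPM + 1) used for the permutation test and at -0.25 to 0.16 without each host. Gna13 (-0.05) was at -0.23 to 0.058 without each host. By Myc, Cxcr5 was at -0.00094 with plates and Gna13 at 0.0030 with the 10 CPM limit. For Rgs13, S was at -0.14 in thinned cells and -0.063 to 0.43 without each host, and G2/M at 0.0050 with RLE, 0.0051 by DESeq2, 0.43 in Myc-negative cells, 0.062 without the block, 0.27 with plates and -0.24 to 0.45 without each host. Gna13 in G2/M was at -0.083 in thinned cells. In the interaction, Gna13 was at 0.071 in thinned cells and -0.47 to 0.093 without each host, Rgs13 at -0.13 to 1.23, S1pr2 at -0.15 to 0.17 and Cxcr5 at -0.30 to 0.12. Asking for at least 5 counts in a cell put Cxcr5 in 56%, Gna13 in 60.9% and Cxcr4 in 47.7% of cells.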
